A study of Mus musculus with 6 samples.

Results

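The Bcl2 family decides whether a cell keeps its mitochondrial outer membrane intact, and 10 of its genes are described here: Bcl2, Bcl2l1, Mcl1, Bcl2a1b, Bcl2l11, Bmf, Bbc3, Bid, Bax and Bak1. They were taken by symbol from a table of 16383 genes, and all 10 were found and passed the filter on low values described below, as did 6761 genes in all. RNA was sequenced from mature mouse CD8 thymocytes, the last stage of CD8 T cells before they leave the thymus, sorted as TCRβ-high, CD8-positive cells negative for CD69 and CD24. Of the 3 genotypes, with 2 libraries each, the first lacked the related HMG-box transcription factors Tcf1 and Lef1 (Tcf1-/-Lef1-/-, called DKO), the second lacked Tcf1 only (Tcf1-/-, called Tcf1 KO), and the third was wild type (WT). The factors were removed with CD4-Cre, which acts from the CD4 CD8 double-positive thymocyte stage onwards, so the deletion precedes the sorted stage. The labels give no strain, age, sex or pooling, and do not say whether WT mice carried Cre nor that replicate libraries stem from different animals. The p-values rest on the spread between the 2 libraries of a genotype, pooled over the 3 genotypes and drawn toward that of other genes. That spread may therefore be purely technical. The title asks how deficiency of both factors affects these thymocytes, read here for one gene family.

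The family works as 3 groups of proteins that bind each other. Survival proteins (Bcl2, Bcl-xL from Bcl2l1, Mcl1 and A1 from Bcl2a1b) hold the effectors Bax and Bak in check. BH3-only proteins (Bim from Bcl2l11, Bmf, Puma from Bbc3, and Bid) neutralise the survival proteins or activate the effectors, which then permeabilise mitochondria and release cytochrome c. In the thymus, Bim is known for the death of self-reactive thymocytes, Bcl-xL for the survival of double-positive thymocytes, and Bcl2 and Mcl1 for the survival of mature T cells that depend on interleukin-7.

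Values are FPKM (fragments scaled by transcript length and by sequencing depth), a measure per length, so that levels of different genes can be set side by side. Both libraries of a genotype are given, replicate 1 first, and each log2 change, with its standard error (SE), was computed after adding 1 to the FPKM, which understates changes at low FPKM. Adjusted p-values come from limma, adjusted by Benjamini-Hochberg across 6761 genes, and a gene is said to have risen or fallen where this p was under 0.05. The libraries of a genotype correlated across genes at r = 0.9856 (DKO), 0.9892 (Tcf1 KO) and 0.9916 (WT) on the log2 scale. Lef1, the one targeted gene analysed here, was at 130.9 and 130.2 FPKM in DKO, 308.7 and 311.5 FPKM in Tcf1 KO and 316.1 and 281.9 FPKM in WT, a fall in DKO of 1.19 ± 0.06 against WT (adjusted p = 0.000157). Gene-level FPKM takes in exons outside any deleted part. Whether that accounts for the Lef1 level left in DKO was not tested. Of the defining genes of the sort, Cd8a was at 516.4 to 535.0 FPKM in DKO, 646.3 to 656.1 FPKM in Tcf1 KO and 561.5 to 599.9 FPKM in WT, Cd24a did not exceed 5.76 FPKM in any library, and Cd69 was still at 27.1 to 39.4 FPKM. Cd4, a gene of the other T cell lineage, was at 128.95 and 63.7 FPKM in DKO, 15.1 and 6.27 FPKM in Tcf1 KO and 1.41 and 0.65 FPKM in WT. Of the 10 genes listed for the sort, Cd4 among them, 4 rose and 3 fell in DKO against WT. In that comparison 49.5% of all tested genes were called. Cd3g, the most abundant of the 10, rose by 0.50 (adjusted p = 0.00171), so the sorted cells differed between genotypes in more than Cd4. The table holds no counts. The spacing of low values was best matched by 53000000 to 67750000 fragments per library, but only 65.2% to 70.1% of those values lay within 0.25 of a whole fragment, where values without spacing give 50% before the search for the best depth, so these depths are rough.

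Of the 10 members, 9 had DKO and WT libraries that did not overlap, as did 77.4% of all tested genes, 7 had Tcf1 KO and WT libraries that did not (55.8% of all), and 7 had DKO and Tcf1 KO libraries that did not (69.1% of all). Mcl1 was the most abundant of the 10 genes in every library, and Bmf and Bcl2a1b were the least abundant in DKO and WT. In DKO cells Bcl2, Bid and Bbc3 rose and Bmf, Bcl2a1b, Bak1 and Bax fell against WT, so that survival genes and death genes moved in both directions. These 7 of 10 members stand beside 49.5% of all tested genes past the threshold in that comparison, the 3 higher members beside 21.7% and the 4 lower beside 27.8%. Over all genes this balance depended on scale: as deposited 1465 genes were higher and 1880 lower, median scaling gave 1767 higher and 1620 lower, and quantile scaling gave 1817 higher and 1626 lower. The median log2 change was -0.05 over the members and -0.03 over all tested genes, the second of which became 0.03 under either scaling. In Tcf1 KO cells 1 member, Bmf, rose against WT and none fell (at an unadjusted p under 0.05, Bcl2l1 and Bbc3 were also higher and Bak1 and Bax lower), where 2.09% of all tested genes were called (1.33% higher and 0.754% lower). Between DKO and Tcf1 KO, Bcl2 and Bid were higher and Bmf, Bcl2a1b and Bak1 lower in DKO, 5 of 10 members beside 38.4% of all tested genes (15.9% higher and 22.6% lower, or 1309 higher and 1278 lower genes under median scaling, against 1072 and 1527 as deposited). The DKO and Tcf1 KO libraries were both compared with the same 2 WT libraries.

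**Figure D1:**
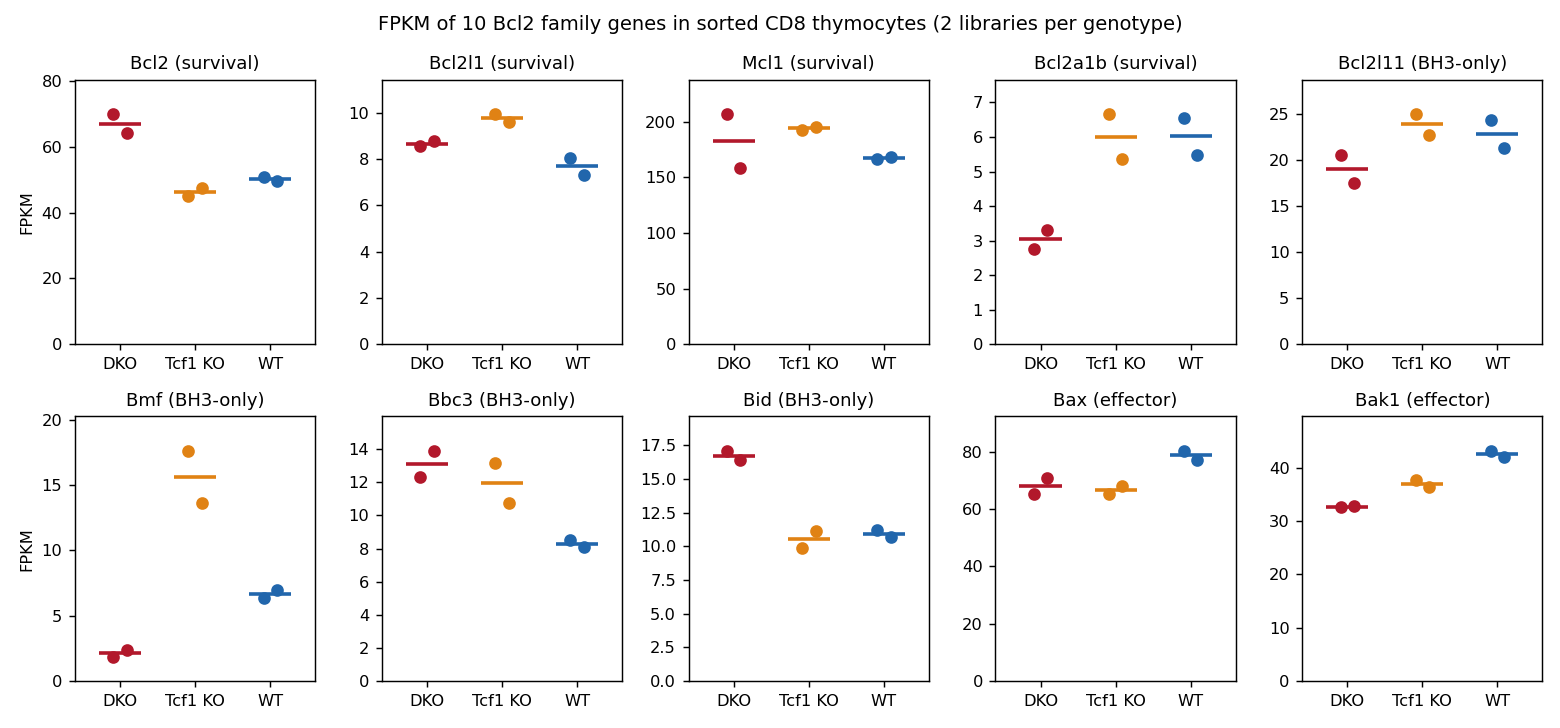
FPKM of the 10 genes (vertical axes, each from 0) in DKO, Tcf1 KO and WT libraries; each point is 1 library and each line the mean of 2. Bmf is lowest in DKO (1.85 and 2.39 FPKM) and highest in Tcf1 KO (17.6 and 13.6 FPKM), with WT between them. Bcl2 and Bid are higher in both DKO libraries than in all others.

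Bcl2 encodes the founding survival protein. It was at 69.95 and 64.1 FPKM in DKO, 45.1 and 47.6 FPKM in Tcf1 KO and 50.7 and 49.7 FPKM in WT. Both DKO libraries were above all 4 others, while the Tcf1 KO libraries lay just below WT. Bcl2 rose in DKO by 0.41 ± 0.06 against WT (adjusted p = 0.00307) and by 0.52 ± 0.06 against Tcf1 KO (adjusted p = 0.00214), and both calls held in each of the 15 alternatives that bear on it. Tcf1 KO differed from WT by -0.11 ± 0.06 (adjusted p = 0.363). The genes whose profile over the 6 libraries was closest to that of Bcl2, by root mean square distance of centred log2 values, were Klf16 (0.04), Kdm7a (0.04) and Evi2b (0.05).

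Mcl1, a short-lived survival protein, was at 206.8 and 158.0 FPKM in DKO, 193.0 and 195.2 FPKM in Tcf1 KO and 166.6 and 168.4 FPKM in WT. The DKO libraries lay on either side of both other genotypes, and no comparison passed (DKO against WT 0.11 ± 0.12, adjusted p = 0.486; Tcf1 KO against WT 0.21 ± 0.12, adjusted p = 0.398). Without DKO replicate 2 the difference from WT was 0.30 and passed (adjusted p = 0.00711), and without DKO replicate 1 it was -0.08. Without DKO replicate 1, DKO was lower than Tcf1 KO by a called -0.29 (adjusted p = 0.0112), against -0.10 with all libraries. Bcl2l1 was at 8.54 and 8.77 FPKM in DKO, 9.93 and 9.60 FPKM in Tcf1 KO and 8.04 and 7.31 FPKM in WT. Its 3 genotypes did not overlap, with Tcf1 KO highest, but no difference passed (DKO against WT 0.16 ± 0.07, adjusted p = 0.128; Tcf1 KO against WT 0.31 ± 0.07, adjusted p = 0.0884). Quantile scaling of the libraries took Bcl2l1 past the threshold in DKO against WT (0.25, adjusted p = 0.0359). Gene-level values do not separate the isoforms of Bcl2l1 or Mcl1, which can have opposite effects on survival.

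The windows around the start sites of these genes were searched for the core sequence bound by Tcf1 and Lef1, because those are the factors removed. The search used AACAAAG and its forms that begin with ATC, TAC or TTC in place of AAC, on both strands, over the 250 bases before and 50 after each RefSeq start site (build GRCm38.p6, whereas the files name mm9). A match occurred in 16.9% of 32851 such windows, and in 3 of the 17 windows of the 10 members, all of which had an entry. Those 3 belong to Bcl2l1, Bcl2a1b and Bax, at 1 match each. The windows of Bcl2 and of the most upstream start of Bcl2l1 are printed 5′ to 3′, to show that of the survival genes with and without a match, with the match in capitals. A match is a description of letters and says nothing of binding.
Bcl2, chr1:106714241-106714540, minus strand: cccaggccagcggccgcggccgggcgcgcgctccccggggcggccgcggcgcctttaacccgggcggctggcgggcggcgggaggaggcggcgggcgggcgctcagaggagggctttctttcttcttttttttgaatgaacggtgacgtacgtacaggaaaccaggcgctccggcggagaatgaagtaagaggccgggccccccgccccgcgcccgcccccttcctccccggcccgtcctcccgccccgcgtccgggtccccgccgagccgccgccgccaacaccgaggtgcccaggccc
Bcl2l1, chr2:152831679-152831978, minus strand: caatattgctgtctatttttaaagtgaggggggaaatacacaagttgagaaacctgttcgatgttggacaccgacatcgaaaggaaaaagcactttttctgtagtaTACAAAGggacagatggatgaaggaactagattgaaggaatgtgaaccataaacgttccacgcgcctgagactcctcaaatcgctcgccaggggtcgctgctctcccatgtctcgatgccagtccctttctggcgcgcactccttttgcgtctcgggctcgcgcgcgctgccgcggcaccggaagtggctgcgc

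A1, the survival protein of Bcl2a1b, is induced by activation in lymphocytes and abundant in myeloid cells. Bcl2a1b was at 2.77 and 3.30 FPKM in DKO, 6.66 and 5.35 FPKM in Tcf1 KO and 6.55 and 5.49 FPKM in WT. The DKO libraries were below all others, and the Tcf1 KO and WT libraries overlapped. It fell in DKO by 0.80 ± 0.14 against WT (adjusted p = 0.00544) and by 0.79 ± 0.14 against Tcf1 KO (adjusted p = 0.00815), calls that ended without the filter on low values (0.0501 and 0.0683). On the rough depths above, the DKO values stand for about 98 and 109 fragments. Fah, at a distance of 0.09, Dynlt1c, at 0.10, and the DNA methyltransferase gene Dnmt3a, at 0.10, had the closest profiles.

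The mouse has several near-identical copies of this gene, which bears on that fall. The coding sequences of Bcl2a1b and Bcl2a1d, 519 bases each, differed at 6 bases (98.8% identity), and 57.6% of the 50-base windows of the Bcl2a1b transcript also occurred in Bcl2a1d. Reads from such windows cannot be placed from their sequence alone, so the split between the copies is uncertain. The stretch printed, the first 90 coding bases, was chosen because none of that length differed at more bases. Differing bases are in capitals.
Bcl2a1b: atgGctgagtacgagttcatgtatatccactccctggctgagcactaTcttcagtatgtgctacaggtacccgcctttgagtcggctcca
Bcl2a1d: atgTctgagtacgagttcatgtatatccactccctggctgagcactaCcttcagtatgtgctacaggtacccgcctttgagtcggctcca
Bcl2a1d was at 2.87 and 4.39 FPKM in DKO, 2.45 and 3.36 FPKM in Tcf1 KO and 2.42 and 2.50 FPKM in WT, a difference between DKO and WT of 0.40 that did not pass (adjusted p = 0.135). Bcl2a1a and Bcl2a1c did not exceed 0.30 FPKM. Summed over the 4 listed copies, the level was 5.77 and 7.82 FPKM in DKO, 9.11 and 9.01 FPKM in Tcf1 KO and 9.31 and 7.99 FPKM in WT. The summed difference was -0.32 between DKO and WT (adjusted p = 0.114) and -0.38 between DKO and Tcf1 KO (adjusted p = 0.0855), so the calls of Bcl2a1b ended in the sum, an alternative chosen after the values were seen. The myeloid marker list, 11 of 12 genes in the table, summed to 6.49 to 8.0 FPKM in DKO, 5.47 to 6.09 FPKM in Tcf1 KO and 5.62 to 6.19 FPKM in WT, with Cd14 and Elane at 0 in all libraries. Its member Fcgr3 was at 0.61 and 3.03 FPKM in DKO and at most 0.24 FPKM elsewhere. Cd68, the most abundant gene of that list, went the other way, at 3.01 and 2.76 FPKM in DKO and 4.04 and 3.54 FPKM in WT. The part of myeloid RNA in the level of the A1 copies was not tested. The Bcl2a1b window is shown because it fell in DKO and holds a match, in capitals, near its upstream end.
Bcl2a1b, chr9:89199023-89199322, plus strand: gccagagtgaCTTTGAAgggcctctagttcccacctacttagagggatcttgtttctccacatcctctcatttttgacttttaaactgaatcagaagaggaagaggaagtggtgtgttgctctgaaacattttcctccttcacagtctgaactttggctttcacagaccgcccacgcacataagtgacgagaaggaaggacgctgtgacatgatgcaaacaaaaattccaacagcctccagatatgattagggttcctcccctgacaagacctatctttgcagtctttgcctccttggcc

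**Figure D2:**
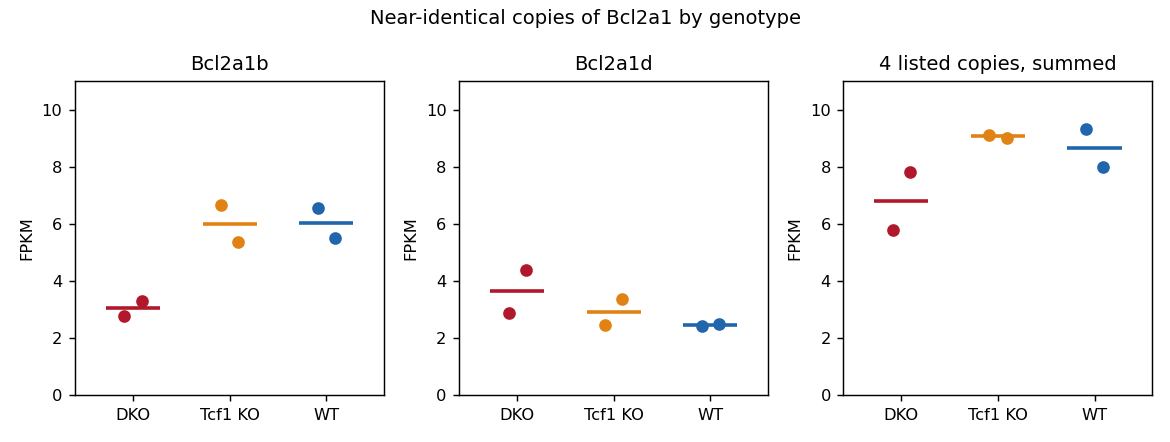
FPKM (vertical axes) of Bcl2a1b, of its copy Bcl2a1d and of the 4 listed copies summed, in DKO, Tcf1 KO and WT libraries; points are libraries and lines means of 2. The DKO libraries lie below the others for Bcl2a1b, above WT for Bcl2a1d, and at 5.77 and 7.82 FPKM in the sum, against 9.31 and 7.99 FPKM in WT.

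Bmf changed most among the members and in opposite directions in the mutants. Its protein is a BH3-only death factor that is held at the cytoskeleton through dynein light chain in healthy cells. Bmf was at 1.85 and 2.39 FPKM in DKO, 17.6 and 13.6 FPKM in Tcf1 KO and 6.31 and 6.98 FPKM in WT. No library overlapped another genotype. It fell in DKO by 1.30 ± 0.15 against WT (adjusted p = 0.00125) and by 2.41 ± 0.15 against Tcf1 KO (adjusted p = 0.000482), and both calls held in all 15 alternatives that bear on it. It rose in Tcf1 KO by 1.11 ± 0.15 against WT (adjusted p = 0.0297), a mean 2.35 times the WT level. That call ended without Tcf1 KO replicate 1 (adjusted p = 0.0638), Tcf1 KO replicate 2 (0.0697), WT replicate 1 (0.222) or WT replicate 2 (0.204), with changes of 0.94 to 1.28, and also without the filter on low values (0.188). The size of the change between DKO and Tcf1 KO ranked 57 among 6761 genes. The closest profiles over the 6 libraries were those of Hemgn, at a distance of 0.18, Adamts14, at 0.24, and the ectoenzyme gene Nt5e, at 0.28. Nt5e was at 6.11 and 7.26 FPKM in DKO, 49.2 and 46.0 FPKM in Tcf1 KO and 15.2 and 12.4 FPKM in WT. RefSeq gives Bmf 3 start sites, none with a match, and the most upstream window is shown because Bmf changed most.
Bmf, chr2:118549637-118549936, minus strand: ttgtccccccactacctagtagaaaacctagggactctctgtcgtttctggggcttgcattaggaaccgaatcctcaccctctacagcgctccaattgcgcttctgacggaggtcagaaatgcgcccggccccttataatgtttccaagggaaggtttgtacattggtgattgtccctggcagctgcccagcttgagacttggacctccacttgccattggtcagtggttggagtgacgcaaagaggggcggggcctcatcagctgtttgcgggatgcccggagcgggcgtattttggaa

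**Figure D3:**
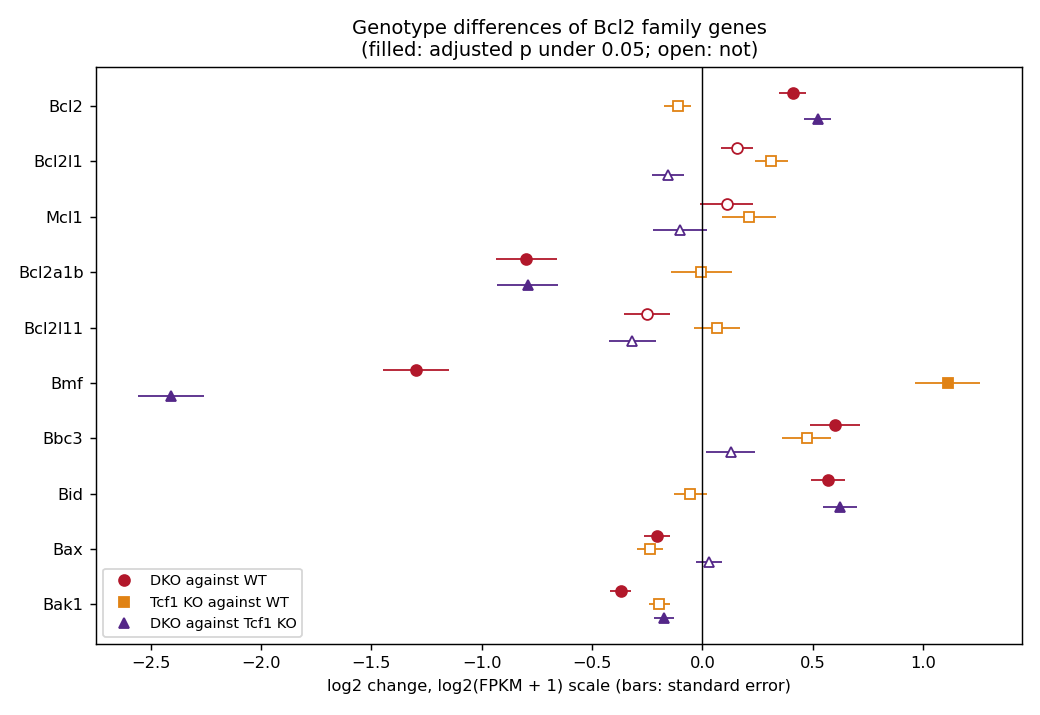
Log2 change with standard error (horizontal axis) of the 10 genes in the 3 comparisons between genotypes, with filled symbols where the adjusted p was under 0.05. Bmf is at -1.30 in DKO against WT and 1.11 in Tcf1 KO against WT, and at -2.41 in DKO against Tcf1 KO, and every other member lies between -0.80 and 0.62.

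Bid links the death receptors to mitochondria, because caspase 8 cleaves it into its active form. It was at 17.1 and 16.4 FPKM in DKO, 9.87 and 11.1 FPKM in Tcf1 KO and 11.2 and 10.7 FPKM in WT. The DKO libraries were above all others and the remaining genotypes overlapped. Bid rose in DKO by 0.57 ± 0.08 against WT (adjusted p = 0.00221) and by 0.62 ± 0.08 against Tcf1 KO (adjusted p = 0.00259), in all 15 alternatives that bear on it. Tcf1 KO differed from WT by -0.05 ± 0.08 (adjusted p = 0.759). Bin2, at a distance of 0.04, Map3k1, at 0.04, and Arl6ip5, at 0.05, had the closest profiles. The Bid window, which holds no match, is shown because Bid, like Bcl2, was higher in DKO than in both other genotypes.
Bid, chr6:120916775-120917074, minus strand: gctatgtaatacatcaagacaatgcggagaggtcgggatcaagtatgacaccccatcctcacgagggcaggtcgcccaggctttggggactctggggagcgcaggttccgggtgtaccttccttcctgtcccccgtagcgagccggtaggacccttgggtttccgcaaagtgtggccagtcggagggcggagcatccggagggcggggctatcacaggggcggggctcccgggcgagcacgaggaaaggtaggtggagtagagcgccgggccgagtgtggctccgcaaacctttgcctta

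Bbc3 encodes Puma, a target of p53 that is also induced when growth factors are withdrawn. It was at 12.3 and 13.9 FPKM in DKO, 13.2 and 10.7 FPKM in Tcf1 KO and 8.54 and 8.07 FPKM in WT. All 4 mutant libraries were above WT, and the mutants overlapped each other. The rise in DKO was 0.60 ± 0.11 (adjusted p = 0.00719) and ended without WT replicate 2 (adjusted p = 0.0521) or without the filter on low values (0.0589). Tcf1 KO was 0.47 ± 0.11 above WT, which did not pass (adjusted p = 0.091). DKO and Tcf1 KO differed by 0.13 ± 0.11 (adjusted p = 0.413). Mrgpre, Kat2b and AI314180 had the closest profiles, at distances of 0.04, 0.08 and 0.09.

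Bcl2l11, which encodes Bim, was at 20.5 and 17.5 FPKM in DKO, 25.0 and 22.8 FPKM in Tcf1 KO and 24.3 and 21.3 FPKM in WT. The DKO libraries were the lowest, and Tcf1 KO and WT overlapped. The difference in DKO was -0.25 ± 0.10 against WT (adjusted p = 0.0944) and -0.32 ± 0.10 against Tcf1 KO (adjusted p = 0.0607). Without DKO replicate 1 these were -0.36 and -0.43 and passed (adjusted p = 0.0448 and 0.0365). The difference from WT shrank to -0.14 without DKO replicate 2 and to -0.16 without WT replicate 1 (adjusted p = 0.314 and 0.367), and that from Tcf1 KO to -0.21 without DKO replicate 2 (adjusted p = 0.19).

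Summed, the 4 BH3-only genes were at 51.8 and 50.1 FPKM in DKO, 65.6 and 58.3 FPKM in Tcf1 KO and 50.3 and 47.0 FPKM in WT. The DKO and WT sums overlapped while their make-up differed. Bmf made up 3.57% and 4.77% of the sum in DKO, 26.8% and 23.4% in Tcf1 KO and 12.5% and 14.8% in WT. Bid made up 33.0% and 32.6% in DKO, 15.0% and 19.1% in Tcf1 KO and 22.2% and 22.7% in WT. Bcl2l11 was the largest component in all 6 libraries. The 4 survival genes summed to 288.0 and 234.2 FPKM in DKO, 254.7 and 257.8 FPKM in Tcf1 KO and 231.9 and 230.9 FPKM in WT, and Mcl1 made up 67.5% to 75.8% of that sum. The ratio of Bcl2 to Bcl2l11, whose proteins bind each other, was 3.41 and 3.67 in DKO, 1.81 and 2.09 in Tcf1 KO and 2.09 and 2.33 in WT, with both DKO libraries above all others. Sums and ratios are descriptions of RNA levels, with no test, and RNA levels do not measure the proteins.

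**Figure D4:**
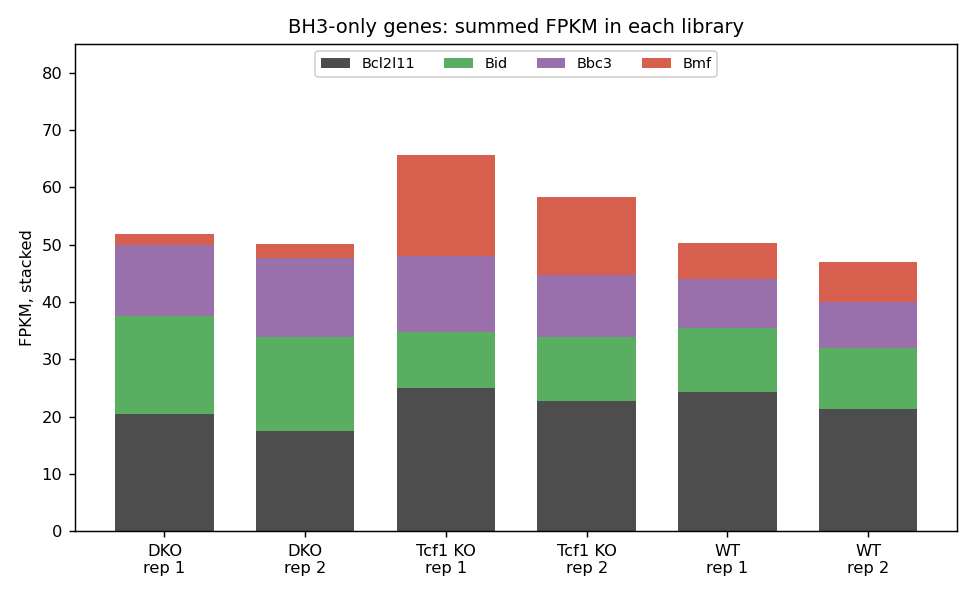
Summed FPKM (vertical axis) of the BH3-only genes Bcl2l11, Bid, Bbc3 and Bmf, stacked, in each of the 6 libraries. The DKO columns reach 51.8 and 50.1 FPKM and the WT columns 50.3 and 47.0 FPKM, with a thin Bmf part (3.57% and 4.77%) in DKO and the thickest (26.8% and 23.4%) in Tcf1 KO.

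The effectors Bax and Bak, which form the pores, had lower levels in all 4 mutant libraries than in WT. Bak1 was at 32.6 and 32.9 FPKM in DKO, 37.7 and 36.5 FPKM in Tcf1 KO and 43.2 and 42.0 FPKM in WT. The 3 genotypes did not overlap. Bak1 fell in DKO by 0.37 ± 0.05 against WT (adjusted p = 0.00179), in all 15 alternatives that bear on it. It fell by 0.17 ± 0.05 against Tcf1 KO (adjusted p = 0.0331), a call that ended whichever single library was left out (adjusted p from 0.0679 to 0.151), under median scaling (0.134), with no variance trend (0.062) and with only DKO and Tcf1 KO in the fit (0.0756). Tcf1 KO was at -0.20 ± 0.05 against WT (adjusted p = 0.0944). Bax, a gene that p53 also induces, was at 65.4 and 71.0 FPKM in DKO, 65.4 and 68.0 FPKM in Tcf1 KO and 80.3 and 77.2 FPKM in WT. All mutant libraries were below WT and the mutants overlapped. Bax fell in DKO by 0.21 ± 0.06 against WT (adjusted p = 0.0301), a call that ended under 10 of the 15 alternatives that bear on it. These were median scaling (adjusted p = 0.0691), quantile scaling (0.0668), no variance trend (0.0556), only DKO and WT in the fit (0.0513), no filter (0.1), and leaving out DKO replicate 1 (0.0925), Tcf1 KO replicate 1 (0.0517), Tcf1 KO replicate 2 (0.0517), WT replicate 1 (0.148) or WT replicate 2 (0.087). Tcf1 KO was at -0.24 ± 0.06 against WT (adjusted p = 0.0967). The effectors together were at 98.0 and 103.9 FPKM in DKO, 103.1 and 104.5 FPKM in Tcf1 KO and 123.5 and 119.3 FPKM in WT. The third gene with a match in its window was Bax, shown with the match in capitals.
Bax, chr7:45466849-45467148, minus strand: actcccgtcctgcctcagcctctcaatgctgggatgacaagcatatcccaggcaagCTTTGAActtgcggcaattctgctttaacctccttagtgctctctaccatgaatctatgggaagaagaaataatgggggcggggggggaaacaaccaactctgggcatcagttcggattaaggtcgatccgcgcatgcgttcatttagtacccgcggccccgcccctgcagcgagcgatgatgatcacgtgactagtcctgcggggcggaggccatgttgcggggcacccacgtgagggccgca

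The rest of the family was read from a list of 17 genes, of which 16 were in the table and 9 passed the filter. In DKO against WT 3 of these rose and 1 fell, beside 49.5% of all tested genes called. In Tcf1 KO against WT limma called none, beside 2.09% of all tested genes. Bad and Bcl2l14 were higher there at an unadjusted p under 0.05, Bcl2l14 with both genotypes under 1 FPKM. Between DKO and Tcf1 KO 1 was higher and 1 lower, beside 38.4% of all tested genes. Bcl2l2, which encodes the survival protein Bcl-w, was at 0.69 and 0.47 FPKM in DKO, 2.46 and 3.13 FPKM in Tcf1 KO and 2.49 and 2.58 FPKM in WT. The DKO libraries were far below the rest, and Bcl2l2 fell in DKO by 1.17 against WT (adjusted p = 0.00128) and by 1.26 against Tcf1 KO (adjusted p = 0.00166). It passed the filter through the Tcf1 KO and WT libraries alone. Bnip3l, a mitochondrial protein that acts in mitophagy, rose in DKO by 0.45 against WT and by 0.31 against Tcf1 KO (57.3 and 55.8 FPKM in DKO, 43.95 and 38.7 FPKM in WT, adjusted p = 0.00356 against WT). Its call against Tcf1 KO ended without DKO replicate 1 (0.0574), Tcf1 KO replicate 1 (0.0744) or Tcf1 KO replicate 2 (0.0757). Bad, a BH3-only gene controlled by phosphorylation of its protein, rose by 0.34 (18.8 and 16.8 FPKM in DKO, 13.9 and 13.6 FPKM in WT, adjusted p = 0.0152), a call that ended without DKO replicate 1 (0.0521), WT replicate 1 (0.0694) or WT replicate 2 (0.0885). Without the filter on low values the Bad call (adjusted p = 0.0706) and the Bnip3l call against Tcf1 KO (0.0893) also ended. Bcl2l14 rose to 1.48 and 1.12 FPKM in DKO, against 0.12 and 0.33 FPKM in WT (0.91, adjusted p = 0.00507). It passed the filter through the DKO libraries alone, with Tcf1 KO at 0.58 and 0.75 FPKM, so it was tested only because it was high in DKO. Bcl2l12, Bcl2l13, Bnip3 and Becn1, with Bcl2a1d, were tested and not called in any comparison. Bok, the remaining effector-like gene, was listed at 0 in all 6 libraries, Hrk and Bcl2l10 did not exceed 0.02 FPKM, Bcl2l15 did not exceed 0.34 FPKM and Bik ranged from 0.55 to 1.06 FPKM.

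Downstream of the effectors, the list of apoptosome, caspase and inhibitor of apoptosis genes had 1 higher and 5 lower of 16 tested genes in DKO against WT (49.5% of all tested genes were called). In Tcf1 KO against WT, where 2.09% of all tested genes were called, limma called none (2 were lower at an unadjusted p under 0.05, among them Birc5). Cytochrome c (Cycs), which the pores release, fell to 17.7 and 16.0 FPKM in DKO, against 27.0 and 29.1 FPKM in WT (-0.70, adjusted p = 0.00153). The mitochondrial flavoprotein gene Aifm1 fell by 0.70 (adjusted p = 0.00225). Birc5, whose product survivin acts mainly in mitosis, fell by 4.14 (adjusted p = 0.000194). Casp8, the most abundant gene of the list, was at 59.5 and 60.4 FPKM in DKO and 57.6 and 62.4 FPKM in WT.

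Of 6 genes of the Fas pathway, 2 rose and 1 fell in DKO against WT, a share near the 49.5% of all tested genes. The ligand gene Fasl was at 39.6 and 41.4 FPKM in DKO, 18.6 and 18.8 FPKM in Tcf1 KO and 0.39 and 0.52 FPKM in WT, and rose in both mutants (adjusted p = 6.69e-06 and 5.58e-05 against WT). It passed the filter through the mutant libraries alone. Cflar, whose product cFLIP restrains caspase 8, was at 50.9 and 49.4 FPKM in DKO, 35.8 and 37.2 FPKM in Tcf1 KO and 30.7 and 31.2 FPKM in WT, a rise of 0.68 in DKO (adjusted p = 0.000291). Fas itself was at 35.3 and 26.3 FPKM in DKO and 25.9 and 21.6 FPKM in WT (0.35, adjusted p = 0.106).

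Upstream, 4 of 10 tested genes of the interleukin-7 and common gamma chain axis rose in DKO against WT and 3 fell, beside the same 49.5% of all tested genes, which also applies to the lists that follow. Il7r, the receptor chain whose signal sustains Bcl2 in T cells, was at 115.6 and 131.9 FPKM in DKO, 105.1 and 103.9 FPKM in Tcf1 KO and 105.2 and 79.8 FPKM in WT. Its rise of 0.43 in DKO (adjusted p = 0.0443) ended without any 1 of 5 libraries, DKO replicate 1 (0.0543), DKO replicate 2 (0.155), Tcf1 KO replicate 1 (0.0743), Tcf1 KO replicate 2 (0.0743) or WT replicate 2 (0.139), and in 9 of its 15 alternatives in all. Without WT replicate 2 the difference was 0.23. Il4ra rose by 0.95 (adjusted p = 0.00306), the shared chain Il2rg by 0.35 (522.4 and 555.6 FPKM in DKO, 411.0 and 434.7 FPKM in WT, adjusted p = 0.00447) and Foxo3, a forkhead factor known to induce Bim and Puma, by 0.36 (adjusted p = 0.0152). The Foxo3 call ended without DKO replicate 1 (0.0575) or WT replicate 2 (0.0917). Il2rb fell by 0.67 (adjusted p = 0.00312).

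The p53 target list had 2 higher and 3 lower of 7 tested genes in DKO against WT. Btg2 rose in DKO (148.8 and 143.2 FPKM, against 61.5 and 64.8 FPKM in WT, 1.2, adjusted p = 8.87e-05) and in Tcf1 KO (96.1 and 97.0 FPKM, 0.61, adjusted p = 0.00778) and the Tcf1 KO call ended without Tcf1 KO replicate 2 (0.0697), WT replicate 1 (0.103) or WT replicate 2 (0.0655). Gtse1, which also peaks in dividing cells, fell by 1.79 in DKO (adjusted p = 0.000289), and Aen and Ccng1 fell by 0.42 and 0.34. The Aen call ended without DKO replicate 2 (0.0563) or WT replicate 2 (0.0963), and that of Ccng1 without DKO replicate 2 (0.0687), WT replicate 1 (0.0716) or WT replicate 2 (0.105).

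Of 12 genes for partners and turnover factors of the family, 1 rose and 2 fell in DKO against WT. Nr4a1, whose product can bind Bcl2, fell by 1.24 (14.2 and 10.04 FPKM in DKO, 29.6 and 29.7 FPKM in WT, adjusted p = 0.00223). Huwe1, a ubiquitin ligase of Mcl1, fell by 0.24 (adjusted p = 0.0148) and Fbxw7, another one, rose by 0.25 (adjusted p = 0.0392). The Huwe1 call ended without DKO replicate 2 (0.0514), WT replicate 1 (0.0642) or WT replicate 2 (0.0906), and that of Fbxw7 without DKO replicate 1 (0.0665), DKO replicate 2 (0.117), WT replicate 1 (0.127) or WT replicate 2 (0.188). Aven, an inhibitor of caspase activation, was at 19.4 and 21.4 FPKM in DKO, 11.2 and 13.4 FPKM in Tcf1 KO and 16.4 and 18.1 FPKM in WT. It was higher in DKO than in Tcf1 KO by 0.69 (adjusted p = 0.00505), while its difference of 0.22 between DKO and WT did not pass (adjusted p = 0.122), and Bcap31 was the most abundant of the list. The dynein light chain genes Dynll1 and Dynll2, whose products hold Bim and Bmf, were not called in any comparison.

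**Figure D5:**
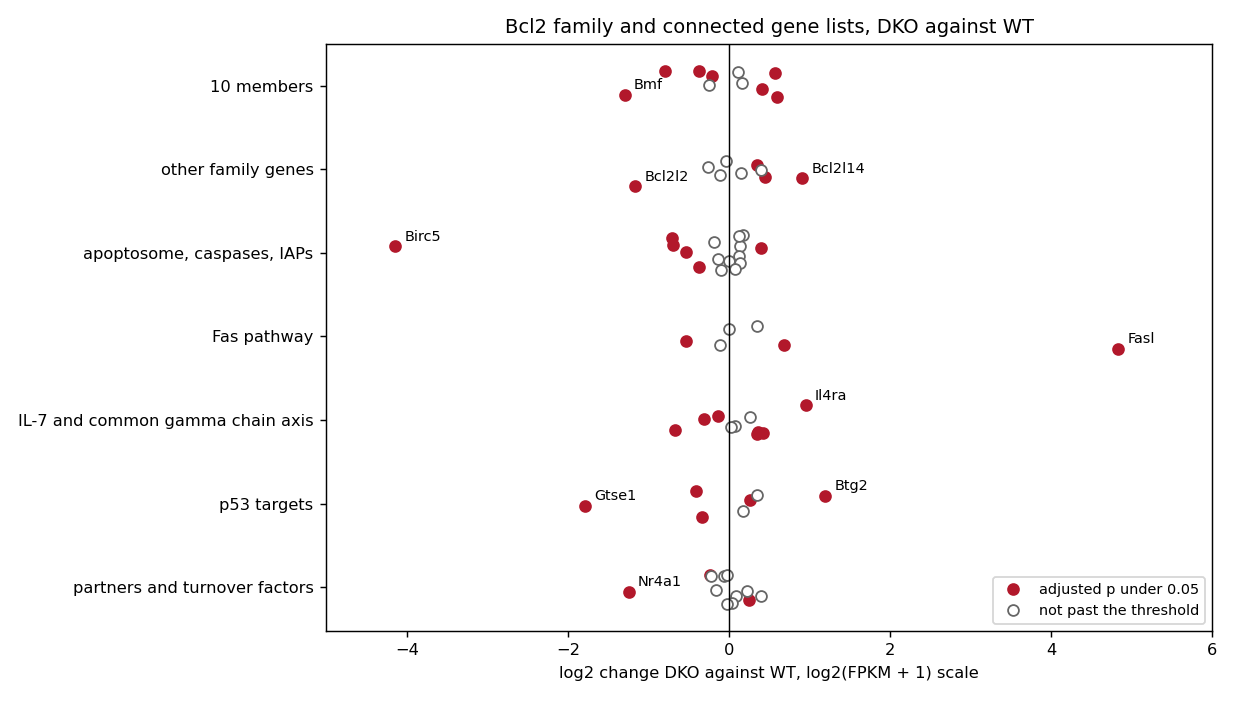
Log2 change in DKO against WT (horizontal axis) of the tested genes of the members and of 6 connected lists, 1 point a gene, red where the adjusted p was under 0.05. Most points lie within 1 of 0, with Fasl at 4.83 and Birc5 at -4.14 farthest out.

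Other genes moved with the same genotypes. All 16 cell cycle genes fell in DKO against WT, and their summed level was 105.4 to 105.9 FPKM in DKO, 255.3 to 342.6 FPKM in Tcf1 KO and 498.1 to 512.9 FPKM in WT, an order that Bak1 shared. In such bulk RNA, fewer cells of a type and less RNA per cell cannot be told apart. The B cell list summed to 23.5 to 26.9 FPKM in DKO, 15.7 to 17.6 FPKM in Tcf1 KO and 20.4 to 21.1 FPKM in WT, of which Cd79b made up most. Thymic stromal markers summed to 3.81 to 4.54 FPKM in DKO, 2.12 to 2.74 FPKM in Tcf1 KO and 2.20 to 2.31 FPKM in WT, with Col3a1 at 0 throughout. Cdh5 of that list was at 1.52 and 1.95 FPKM in DKO and 0.58 and 0.68 FPKM in WT. It rose in DKO by 0.74 against WT (adjusted p = 0.00556), and passed the filter through the DKO libraries alone. Epcam rose by 0.54 (adjusted p = 0.0221), a call that ended without DKO replicate 2, WT replicate 1 or WT replicate 2. Erythroid markers summed to 4.23 to 4.87 FPKM in DKO, 4.12 to 4.14 FPKM in Tcf1 KO and 4.44 to 4.54 FPKM in WT. Gata1, the most abundant of them, fell in DKO against WT (-0.42, adjusted p = 0.0293). That call ended without DKO replicate 1, WT replicate 1 or WT replicate 2. The part of these, and of the level of Cd4, in the values of the family was not tested.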

How the data were processed

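The authors deposited gene-level FPKM, 1 column per library with 2 decimals. The submitters' processing notes list FastQC, RSEM 1.2.21 and the build mm9, and nothing used here states the aligner, annotation or filters. The table used here ends at Pcsk5 in alphabetical order, so Pmaip1, Xiap, Stat5a, Stat5b, Pidd1, Trp53, Pdgfra and Tcf7 are not analysed here. RSEM apportions ambiguous reads between genes. Accessions gave back 13 symbols stored as dates.

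Genes with at least 1 FPKM in at least 2 libraries were kept (6761 tested, 9622 set aside). Values were fitted as log2(FPKM + 1) in limma 3.58.1 (R 4.3.3), with a genotype term alone and all 6 libraries together, leaving 3 residual degrees of freedom, variance trend, Benjamini-Hochberg threshold 0.05. The fit was tested on simulated data. The 16 alternatives covered pseudocount, filter, scaling, trend, samples, replicate block, each library left out, and the sum of the Bcl2a1 copies, the last chosen after the values were seen. That sum bears on Bcl2a1b alone among the members, which leaves 15 alternatives for each other member. The members and gene lists were chosen with earlier results of these data known. Named genes are the members, the listed family, per list up to 4 genes with the largest change in DKO against WT among those called in any comparison, plus the most abundant, and the 3 closest profiles of each called member with a range of at least 0.5. Fas, Dynll1, Dynll2, Fcgr3, Cd8a, Cd24a and Cd69 were named after their values were seen. The values of 2 listed genes are not reported here. Fragments per library are rough, so no counting interval was computed.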

Additional observations from a re-analysis of the deposited data

How the results depend on the processing

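Bcl2, Bid, Bmf and Bak1 kept their calls in DKO against WT in each of the 15 alternatives that bear on them. So did Bcl2, Bid and Bmf in DKO against Tcf1 KO, and no call of the 54 genes recomputed reversed. Of 151 member values recomputed per comparison, 14 calls ended and 4 were gained in DKO against WT, 5 ended and 0 were gained in Tcf1 KO against WT, and 11 ended and 3 were gained in DKO against Tcf1 KO. Without the filter on low values, 4 members were called in DKO against WT, where 2636 of 16383 genes were called, and 0 in Tcf1 KO against WT, and 69 genes in all were called in Tcf1 KO against WT and 1542 in DKO against Tcf1 KO. With each library left out in turn, called genes numbered 2066 to 3115 in DKO against WT (3345 with all), 12 to 177 in Tcf1 KO against WT (141 with all) and 1583 to 2275 in DKO against Tcf1 KO (2599 with all). Called members then numbered 5 to 8, 0 to 1 and 4 to 6. In Tcf1 KO against WT there were 12 calls without Tcf1 KO replicate 2 or WT replicate 1 and 13 without WT replicate 2, so a member not called there is not shown to be unaltered. Same-numbered libraries deviated together at r = 0.15 (DKO with Tcf1 KO), 0.15 (DKO with WT) and 0.05 (Tcf1 KO with WT) across genes, so the numbers were not taken as pairs. With the replicate block, 3571, 151 and 2812 genes were called, and Bcl2l11 was called lower in DKO against WT (adjusted p = 0.0137) and against Tcf1 KO (0.00969). The summed level of the members in DKO was 1.03 times WT in FPKM, with the DKO libraries (437.8 and 388.2 FPKM) on either side of both WT libraries (405.7 and 397.2 FPKM). Outside the members, calls in DKO against WT ended in 5 of 15 alternatives for Huwe1, Ccng1 and Fbxw7. They ended in 4 of 15 for Bad and in 3 of 15 for Foxo3 and Aen. In DKO against Tcf1 KO, the Bnip3l call ended in 4 of 15 and the Aven call in 1 of 15. Where a call changed, the cause was not tested.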
